A study of Mus musculus with 4 samples.

Results

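Open chromatin was described at 52 genes of the BMP and TGF-beta pathways, chosen by name and sorted into 6 roles: 19 ligands, 11 receptors, 8 Smads, 6 antagonists, 4 Id targets and 4 latent TGF-beta binding proteins. They are 52 of the 21827 protein-coding genes annotated. Accessible DNA was mapped by ATAC-seq, which uses a transposase to cut it and add sequencing adapters, in dental mesenchymal cells from incisors of wild-type C57BL/6 mice, 4 weeks old, without treatment. The 4 samples were lanes of 1 library under 1 shared name, so there was no second group and no replicate error. Ranges in parentheses after a read number are exact 95% Poisson intervals; they hold counting error and nothing else.

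A region was counted for a gene when its midpoint lay nearest to a transcription start site (TSS) of that gene, or when it overlapped 1 kb either side of such a TSS, here called the promoter window. This gave 1013 of the 121574 open regions and 18710 reads. No region was counted for more than 1 of the 52 genes. The sequence nearer to the TSSs of a gene than to those of any other protein-coding gene is called its surroundings. In bulk cells, a region that is open in more cells and a region that is open more strongly per cell cannot be told apart.

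BMP, GDF, activin and TGF-beta ligands are secreted dimers that bring together type I and type II receptor kinases. The receptors phosphorylate Smads, Smad1, Smad5 and Smad9 on the BMP side and Smad2 and Smad3 on the TGF-beta and activin side, which enter the nucleus with Smad4. Smad6 and Smad7 inhibit the signal, Noggin, Chordin, Gremlin and Follistatin bind ligands outside the cell, and Id genes are direct BMP targets. In teeth, BMP4 of the mesenchyme is a classical signal to the epithelium, and TGF-beta signalling takes part in odontoblast and dentin formation.

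The labelled cell type was checked on markers. Of 10 dental mesenchyme genes, 9 had a region in the promoter window, with a median of 123.5 promoter reads and a range from 0 at Barx1 to 164 at Msx1. The promoter window held a region at 1 of 6 leukocyte genes (0 to 7 reads), at 4 of 5 endothelial genes (0 to 54 reads) and at 5 of 6 dental epithelium genes (0 to 112 reads, the highest at the enamel gene Ambn). Of all protein-coding genes, 64.6% had such a region. By all reads given to a gene the lists were less apart, with medians of 316 for dental mesenchyme, 180 for endothelial, 80 for dental epithelium and 7 for leukocyte genes, and with 591 reads at Ptprc and 1032 at Cdh5, nearly all outside their promoter windows. The part of such other cells in the values below was not tested.

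All 52 genes had at least 1 region, against 78.9% of all protein-coding genes, and 51 had one in the promoter window, against 64.6%. The exception was Bmp10, a ligand known from the heart. The median of the 52 genes was 223 reads, against 92 for all genes with a region, and 42 of the 52 lay above the latter, against 49.6% of genes with a region. In the top 25% of genes with a region, at 183 reads or more, were 31 of the 52, against 25.1% of all such genes. The genes also have wide surroundings, with a median of 168.4 kb against 54.75 kb for genes with a region. Across the 52 genes, reads and the width of the surroundings had a Spearman rho of 0.63, and across 17232 genes with a region it was 0.36. These are descriptions across genes of 1 library. When regions were given to the nearest TSS of any gene, noncoding genes included (here the any-gene assignment), the median of the 52 genes was 133.5 reads, against 74 for protein-coding genes with a region, and that of the receptors 116 in place of 242. In 24 of the 52 genes the reads were then more than 1.5 times fewer. The share of all genes with such a drop was not worked out, so this count is not a trait of the pathway.

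Per length, the pathway as a whole was near the typical gene. In reads per 100 kb of surroundings, 26 of 52 genes were above the median gene, against 50.0% of all genes with a region, and their median was 165.7 against 141.5. In promoter reads per kb of promoter region, 23 of the 51 genes with such a region were above the median, again against 50.0%, and their median was 73.5 against 80. The medians of the roles lay further apart than those of the whole list and of all genes. They rest on only 4 to 18 genes each, and medians of so few genes scatter more. Id genes had a median of 199.9 promoter reads per kb, Smads 138.1, receptors 81.1, antagonists 61.1, ligands 54.6 and latent TGF-beta binding proteins 49.3. The ranges overlapped for most roles, from 19.8 to 333.3 among ligands and from 131.6 to 253.9 among Id genes, whereas all 4 latent TGF-beta binding proteins (11.6 to 66.7) lay below all 4 Id genes.

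**Figure D1:**
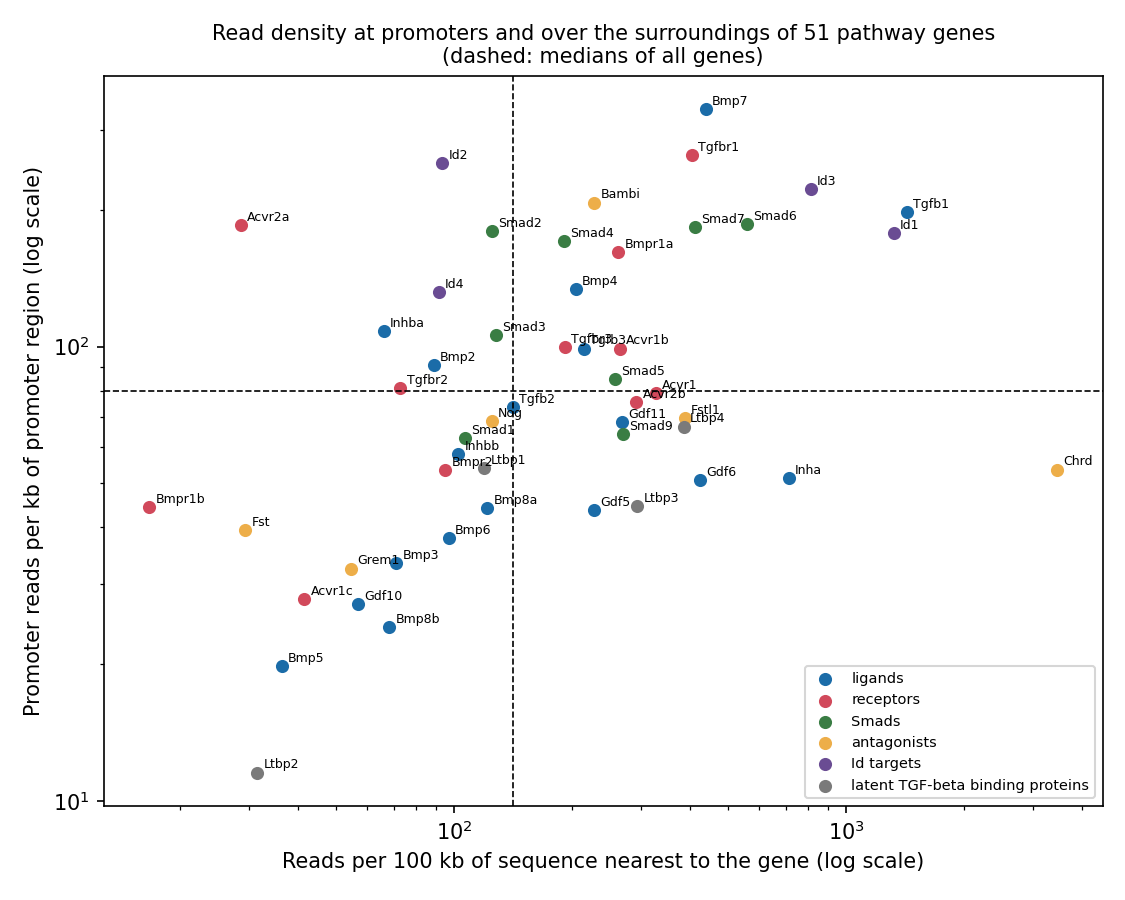
Promoter reads per kb of promoter region (y axis, log scale) against reads per 100 kb of surroundings (x axis, log scale) for the 51 genes with a region in the promoter window, coloured by role; dashed lines are the medians of all genes. Bmp7 is highest at its promoter with 333.3 reads per kb, all 4 Id genes lie above the horizontal line, and Ltbp2 is lowest with 11.6.

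The Id genes had the highest median of the 6 roles, 541 reads. They encode helix-loop-helix proteins that lack a DNA-binding part and block other helix-loop-helix factors. Id1 had 443 reads (402.7 to 486.2) over 11 regions, Id2 672 over 44, Id3 483 over 12 and Id4 599 over 40. The layout split them. Id1 and Id3 are compact, with 33.6 and 59.5 kb of surroundings and 1320 and 811.8 reads per 100 kb. Id2 and Id4 lie beside wide gaps of 720.6 and 656.6 kb, and had 93.3 and 91.2 reads per 100 kb, below the median gene. In the any-gene assignment, Id1 had 419 reads, Id3 392, Id2 372 and Id4 196, all of the last at its promoter.

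Between 1 and 10 kb from a TSS lay 34.0% of the reads of the Id genes, with regions over 1000 reads left out. The share was 9.12% for all genes and 12.8% for the 52 genes. The next highest role, the latent TGF-beta binding proteins, had 24.3%. At the Id genes the band held 17 regions and 746 reads, 519 of them in the 5 strongest regions, which lay at Id1, Id2 and Id3. Under any-gene assignment, 12 of the 17 regions, with 638 reads and the 5 strongest among them, stayed with an Id gene. At Id1, a region 3.1 kb downstream had 112 reads (92.2 to 134.8), beside 98 (79.6 to 119.4) over the TSS and 100 (81.4 to 121.6) in a region 1.1 kb upstream that overlapped the promoter window. The 3 intervals overlapped. At Id2, regions 1.7 and 3.8 kb upstream had 91 (73.3 to 111.7) and 89 (71.5 to 109.5) reads, beside 159 (135.2 to 185.7) over the TSS. At Id3, regions 2.9 kb upstream and 4.3 kb downstream had 96 (77.8 to 117.2) and 131 (109.5 to 155.4), beside 149 (126.0 to 174.9) over the TSS. Id4 had no region in the band, and its next strongest after the promoter lay 33.2 kb upstream, in a noncoding gene, with 110 reads (90.4 to 132.6), beside 177 (151.9 to 205.1) at the promoter.

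Of the near regions of Id1, Id2 and Id3, 4 share a sequence. BMP-activated Smads are known to bind the GC box GGCGCC when a Smad4 site GTCT follows 5 bases on. The arrangement was already known from Id1, so matches near the Id genes are not independent of the choice of this sequence. This arrangement is written here as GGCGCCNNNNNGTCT and was searched by exact letters on both strands. It was in 5 of the 1013 regions, against 80 of all 121574 regions (0.0658%). Of the 5 regions, 4 were the near ones of Id1, Id2 and Id3. The element was in 4 of the 883 pathway regions that did not overlap a promoter window (0.453%). For all genes, regions away from promoters were those with a midpoint over 1 kb from a TSS. Of these 97141 regions, 33 held the element (0.034%), the same 4 included. The 4 pathway regions had more reads than 99.1% to 99.7% of regions away from promoters. They are printed because they show the same letters in 4 separate places, 5′ to 3′ on the strand of the element, with the GC box and the Smad4 site in capitals. The build is mm10 throughout.
Id1, 3.1 kb downstream, chr2:152739446-152739510, plus strand: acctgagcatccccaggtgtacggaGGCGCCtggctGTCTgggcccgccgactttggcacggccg
Id2, 1.7 kb upstream, chr12:25098829-25098893, minus strand: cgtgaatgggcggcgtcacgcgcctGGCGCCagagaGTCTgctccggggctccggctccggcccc
Id3, 2.9 kb upstream, chr4:136140515-136140579, plus strand: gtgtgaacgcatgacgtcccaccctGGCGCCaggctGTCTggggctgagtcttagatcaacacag
Id3, 4.3 kb downstream, chr4:136147956-136148020, plus strand: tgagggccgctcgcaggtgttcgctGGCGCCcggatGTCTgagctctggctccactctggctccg

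The region 1.1 kb upstream of Id1 held the GC box with no GTCT at that spacing, and is shown with the GC box in capitals. Only exact letters were searched, so a Smad site with other letters or spacing was not tested there.
Id1, 1.1 kb upstream, chr2:152735127-152735182, plus strand: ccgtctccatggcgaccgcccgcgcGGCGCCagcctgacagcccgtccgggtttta
The fifth region with the composite element was in the promoter window of Grem1, the Gremlin gene, with 37 reads. No Id4 region held the element. The GC box by itself was in 8.59% of the pathway regions and in 9.39% of all regions. Its share in a table of promoters is given below. These matches are letters in open regions, and binding was not measured.

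**Figure D2:**
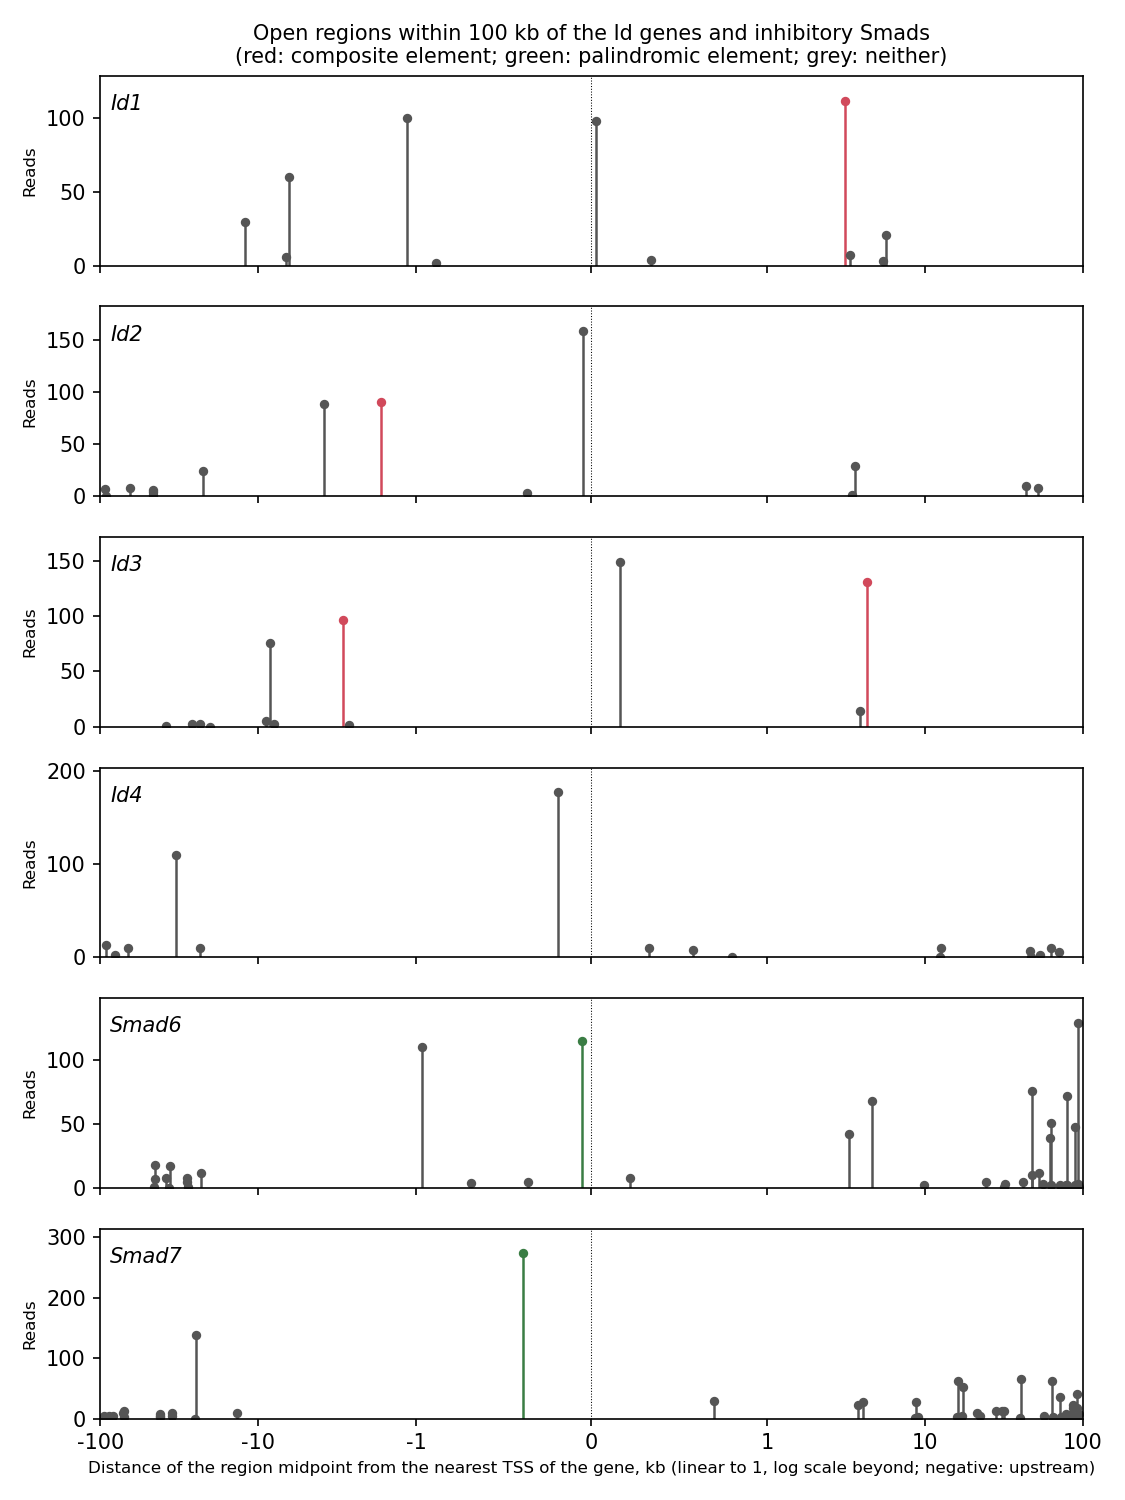
Reads (y axis) of each open region within 100 kb of the TSS of Id1, Id2, Id3, Id4, Smad6 and Smad7, placed by the distance of its midpoint from the nearest TSS of the gene (x axis, kb, linear to 1 and logarithmic beyond, negative upstream). Regions with the composite element are red, those with the palindromic element green; red stems of 91 to 131 reads flank Id1, Id2 and Id3, and green stems of 115 and 273 reads stand at the promoters of Smad6 and Smad7.

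Among the Smads, Smad7 and Smad6 had the most reads outside the promoter window when regions went to the nearest protein-coding TSS. Smad7 had 302 promoter reads and 1097 elsewhere over 76 regions in all. Smad6 had 242 promoter reads and 758 elsewhere over 46 regions. Per 100 kb of surroundings, their reads elsewhere had a median of 372.1, against 28.1 for genes with a region and 71.5 for all 8 Smads. By the any-gene assignment, Smad7 kept 422 reads elsewhere and Smad6 126, fewer than its promoter reads and close to the 135 of Smad3, so that Smad6 did not stand apart there. The strongest Smad6 region, chr9:63927451-63928091, lay 94.3 kb downstream in intergenic sequence and had 129 reads (107.7 to 153.3). Smad6 regions over the TSS and 1.0 kb upstream had 115 (94.9 to 138.0) and 110 (90.4 to 132.6). At Smad7, the promoter region had 273 reads (241.6 to 307.4), and a region 24.6 kb upstream had 138 (115.9 to 163.0).

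The Smad6 and Smad7 promoter regions also share a sequence. Both hold the palindromic Smad binding element, GTCTAGAC, which reads the same on both strands and is shown because these 2 promoters were the only ones among the 130 promoter-window regions of the pathway with it. In all, 9 of the 1013 regions held it (0.888%), against 423 of all regions (0.348%). The other 7 lay outside promoter windows and had 1 to 22 reads. The 2 promoter regions were not set against the share in promoter windows of all genes. Of all regions away from promoters, 353 of 97141 held the element (0.363%), against 7 of 883 for the pathway (0.793%). In the RefSeq table of promoters (GRCm38.p6, 250 bases before to 50 after each start), which matched 38 of the 52 genes with 47 promoters, it was in 1 (Smad6), against 0.213% of all 32851 promoters. The composite element was in none of the 47 promoters and in 0.0731% of all. The GC box was in 14 of the 47 (29.8%), against 11.9% of all promoters in that table.

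The Smads that carry the signal had fewer reads elsewhere. Smad2 had 511 reads, 234 of them in the promoter window, and Smad3 had 268, with 110 there. Smad4, the shared partner, had 171 of 197 reads in the promoter window. Smad1, Smad5 and Smad9 had 107, 108 and 89 promoter reads and 76, 78 and 8 elsewhere. The promoter window thus held most reads of the BMP-side trio and of Smad4, and a minority at Smad2 and Smad3. Smad9, with 97 reads, was the lowest Smad. In the any-gene assignment, Smad2 had 251 reads and Smad5 108, most or all at the promoter. Per kb, Smad2 and Smad4 (179.3 and 170.5) were near the inhibitory pair (185.9 and 183.5), and Smad1 and Smad9 (63.0 and 64.3) were below the median promoter.

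Ligand genes ran from 18 reads at Gdf5, a joint and cartilage factor, to 2545 at Gdf6, a factor of joints and skull. The Gdf6 sum rested on 1 region, chr4:9958961-9959562, 114.9 kb downstream in intergenic sequence, with 1935 reads (1850 to 2023), or 76.0% of the total. It was the 1 region of the pathway over 1000 reads, against 0.0123% of all regions, and the next strongest had 368. Without it Gdf6 had 610 reads, and the highest ligand was Bmp7 with 939, below the 1399 of Smad7. Under any-gene assignment, Gdf6 had 290. The sequence of the 1935-read region resembles the mitochondrial genome. Of its 602 bases, 97.0% aligned there, from position 3538 to 4122, over mt-Nd1, 3 transfer RNA genes and mt-Nd2, with 83.1% identity. Of the 15 regions over 1000 reads in the whole library, 11 aligned over more than 50% of their width, whereas none of 29 pathway regions with 100 to 1000 reads did, the highest being 8.01%. By runs of 25 identical bases, a stricter measure, the match covered 18.9% of the Gdf6 region and more than 50% of the width in 1 of the 15 regions. The alignment was added after the data were seen. A stretch of 200 bases is shown, plus strand, because it makes the match visible; runs of 25 or more bases identical to the mitochondrial genome are in capitals, 88 bases in all.
Gdf6, 114.9 kb downstream, chr4:9959116-9959315, plus strand: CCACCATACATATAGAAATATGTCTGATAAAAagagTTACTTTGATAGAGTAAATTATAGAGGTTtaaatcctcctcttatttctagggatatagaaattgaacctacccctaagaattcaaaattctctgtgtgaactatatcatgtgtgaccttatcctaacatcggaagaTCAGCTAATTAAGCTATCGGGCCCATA
The remaining Gdf6 regions had at most 99 reads, and its promoter window had 62 (47.5 to 79.5).

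Bmp7, a broadly expressed BMP, had the densest promoter of the pathway, with 225 reads (196.6 to 256.4) or 333.3 per kb, more than 98.2% of genes with a promoter region. Its 714 reads elsewhere came from 41 regions, the strongest 150.9 kb downstream with 99 reads (80.5 to 120.5). Inhba, which encodes the activin A subunit, had 97 promoter reads and 641 elsewhere in 1117 kb of surroundings. Its strongest region, 188.6 kb downstream, had 95 reads (76.9 to 116.1), close to the 92 (74.2 to 112.8) in a promoter-window region 0.4 kb downstream of the TSS. Bmp2 had 125 promoter reads and 587 elsewhere, in 804.2 kb, where no region outside the promoter window exceeded 39 reads. Per 100 kb, Inhba (66.1) and Bmp2 (88.5) were below the median gene. By the any-gene assignment, Bmp7 had 435 reads, Bmp2 182 and Inhba 132, and the distal Bmp7 and Inhba regions went to other genes.

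Bmp4 had 96 promoter reads and 293 elsewhere. Its strongest region was intronic, 3.1 kb downstream of the TSS at chr14:46387170-46387793, with 112 reads (92.2 to 134.8), beside 89 (71.5 to 109.5) over the TSS and 80 (63.4 to 99.6) in a noncoding gene 71.3 kb upstream. The 3 intervals overlapped. Of the TGF-beta ligands, Tgfb1 had 271 reads in 19.0 kb of surroundings, or 1429 per 100 kb, with 145 at its promoter and 85 in an intronic region 2.3 kb downstream. Tgfb2 had 71 promoter reads and 375 elsewhere, and Tgfb3 had 109 and 166. In the any-gene assignment, Tgfb1 kept its 271 reads, whereas Tgfb2 and Tgfb3 had 71 and 109, all at the promoter, and Bmp4 had 107, with 11 elsewhere, its intronic region going to another gene.

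The other ligands were low at their promoters. Bmp3 had 40 promoter reads, Bmp6 53, Bmp8a 54, Gdf10 27, Gdf11 63, Inhbb 70 and Inha 54. Fewest were found for Bmp5 and Gdf5 with 8 each, Bmp8b with 5 and Bmp10 with no region there. All of these with a promoter region were below the median promoter per kb. The 1 Inha region lay nearer to the TSS of Obsl1, so its reads cannot be assigned to 1 of the promoters. Several of these ligands had their strongest region far from the promoter: at Bmp3 it lay 114.0 kb upstream, with 47 reads (34.5 to 62.5), and at Bmp6 56.1 kb upstream, with 55 (41.4 to 71.6). At Bmp5 it was intronic, 24.2 kb downstream, with 27 (17.8 to 39.3), against 8 (3.45 to 15.8) at the promoter. Those intervals did not overlap, but the region was picked as the strongest, so this is no test. Under any-gene assignment, Bmp6 had 74 reads, Gdf10 47 and Bmp8b 5, and the distal Bmp6 region went to another gene.

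Receptor genes were read more at promoters than ligands were. The promoter window took 53.7% of receptor reads and 24.3% of ligand reads, with the large Gdf6 region left out, against 52.01% for all genes. Median surroundings were 114.0 kb for receptors and 165.4 kb for ligands, and reads elsewhere per 100 kb of surroundings had medians of 21.1 and 71.4. More than 50% of the reads lay outside the promoter window at 34 of the 52 genes, 15 of them ligands and 4 receptors, against 42.5% of genes with reads. Of all reads of the 52 genes, 69.9% lay outside the promoter window, and 40.8% did so with the any-gene assignment. In that assignment, 16 of the 52 genes had more than 50% of their reads elsewhere, against 4418 of 16378 genes with a region. The promoter window then took 79.9% of receptor reads and 55.2% of ligand reads, against 75.5% for genes with a region.

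**Figure D3:**
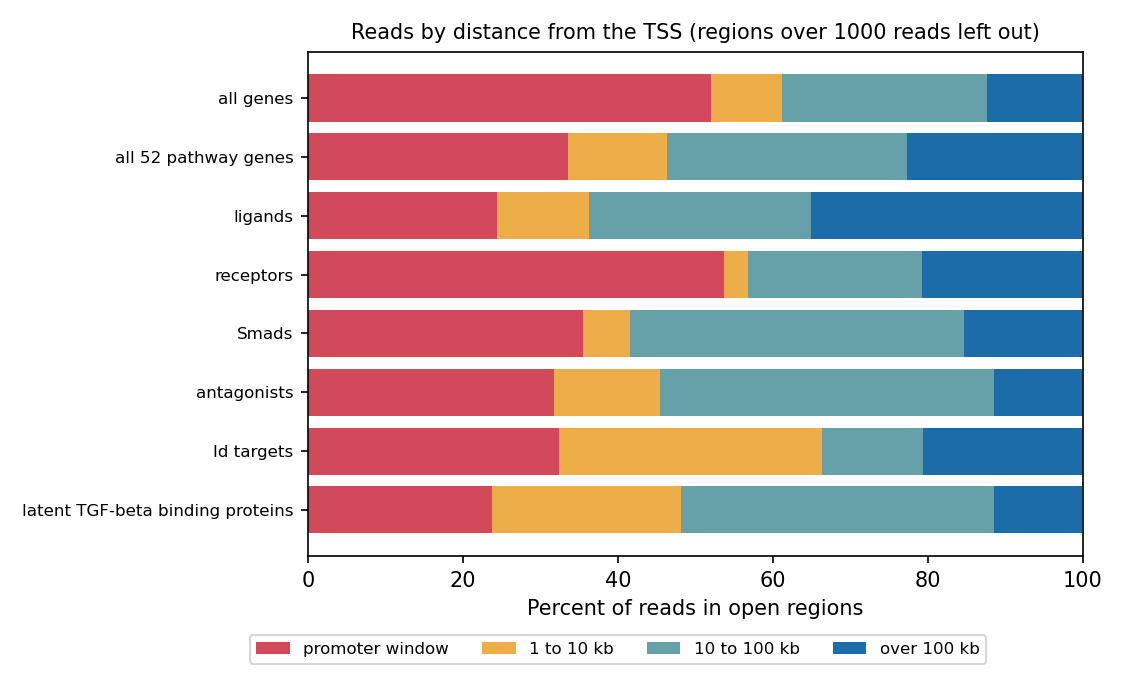
Percent of reads in open regions (x axis) by distance from the TSS, for all genes, the 52 pathway genes and the 6 roles, with regions over 1000 reads left out. The promoter window takes 53.7% of receptor reads and 24.3% of ligand reads, and the band from 1 to 10 kb takes 34.0% of the reads of the Id genes.

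Tgfbr1, the type I TGF-beta receptor, had 377 of its 411 reads in the promoter window, 368 of them (331.4 to 407.6) in the region over the TSS, chr4:47352673-47353750. That is 264 promoter reads per kb, more than 95.6% of genes with a promoter region. Its partner Tgfbr2 had 113 promoter reads, or 81.1 per kb, and 366 elsewhere in 657.5 kb. The pair thus differed in layout, with single regions of at most 9 reads outside the promoter window at Tgfbr1 and up to 41 (29.4 to 55.6) at Tgfbr2. Tgfbr3, the coreceptor betaglycan, had 113 promoter reads and 238 elsewhere. By the any-gene assignment, the reads elsewhere were 26 at Tgfbr1, 136 at Tgfbr2 and 0 at Tgfbr3.

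Of the BMP receptors, Bmpr1a resembled Tgfbr1, with 228 of 248 reads in the promoter window. Bmpr1b had 12 (6.20 to 21.0) there and 85 elsewhere, and was the least dense of the 52 genes with 16.7 reads per 100 kb. Bmpr2, the type II receptor, had 94 promoter reads and 14 elsewhere. The promoter intervals of Bmpr1a (199.4 to 259.6) and Bmpr1b did not overlap. Among activin receptors, Acvr2a had the most reads of all receptors, 547, of which 183 were in the promoter window and 83 (66.1 to 102.9) in a region 174.8 kb upstream. Its surroundings spanned 1916 kb. In the any-gene assignment, Acvr2a had its 183 promoter reads alone and Bmpr1b 59 reads, and Tgfbr1, with 403, had the most of the receptors. Acvr2b had all of its 116 reads in the promoter window. Acvr1b had 77 promoter reads and Acvr1c, with the fewest reads of the receptors, 46 of 71. Acvr1, a BMP type I receptor, had 138 promoter reads, 104 of them in a region nearer to the TSS of a neighbouring gene.

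Antagonist genes were uneven. Bambi, a pseudoreceptor that blocks type I receptors, had 247 promoter reads and 644 elsewhere. A region 59.0 kb downstream in intergenic sequence, chr18:3566401-3567446, had 232 reads (203.1 to 263.9), within the interval of the 234 (205.0 to 266.0) over the TSS. Fstl1, a follistatin-like secreted protein, had 75 promoter reads and 325 elsewhere, with 64 reads (49.3 to 81.7) in an intronic region 32.3 kb from the TSS. The ligand-binding antagonists were lower. Nog had 79 promoter reads and 136 elsewhere, Grem1 60 and 46, Fst 25 and 38, and Chrd 67 and 0. Chrd has 1.94 kb of surroundings, so its 3448 reads per 100 kb, the highest of the pathway, is its promoter alone. Per kb of promoter region, Bambi had 207.4 and the other 5 antagonists had 32.5 to 69.7, below the median promoter. Under any-gene assignment, Bambi had 411 reads, its region 59.0 kb downstream going to another gene, Nog 135 and Fst 40.

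The latent TGF-beta binding proteins hold TGF-beta in the matrix until it is released. Ltbp1 had 131 promoter reads over the 6 regions in its promoter windows and 400 elsewhere. Its strongest region, chr17:75018046-75018625, was intronic, 12.8 kb downstream of the nearest TSS, with 87 reads (69.7 to 107.3). Ltbp4 had 19 promoter reads (11.4 to 29.7) and 176 elsewhere. Its strongest region, intronic and 2.5 kb downstream, had 64 reads (49.3 to 81.7). That interval lay above that of its promoter, but the region was picked as the strongest, so this is no test. Ltbp3 had 36 promoter reads of 58, and Ltbp2 had 8 of 31, the fewest promoter reads per kb of the pathway. By the any-gene assignment, Ltbp2 had its 8 promoter reads alone. Of these genes, Ltbp1 and Ltbp4 were in the top 25% of genes by reads, and none was above the median promoter per kb.

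**Figure D4:**
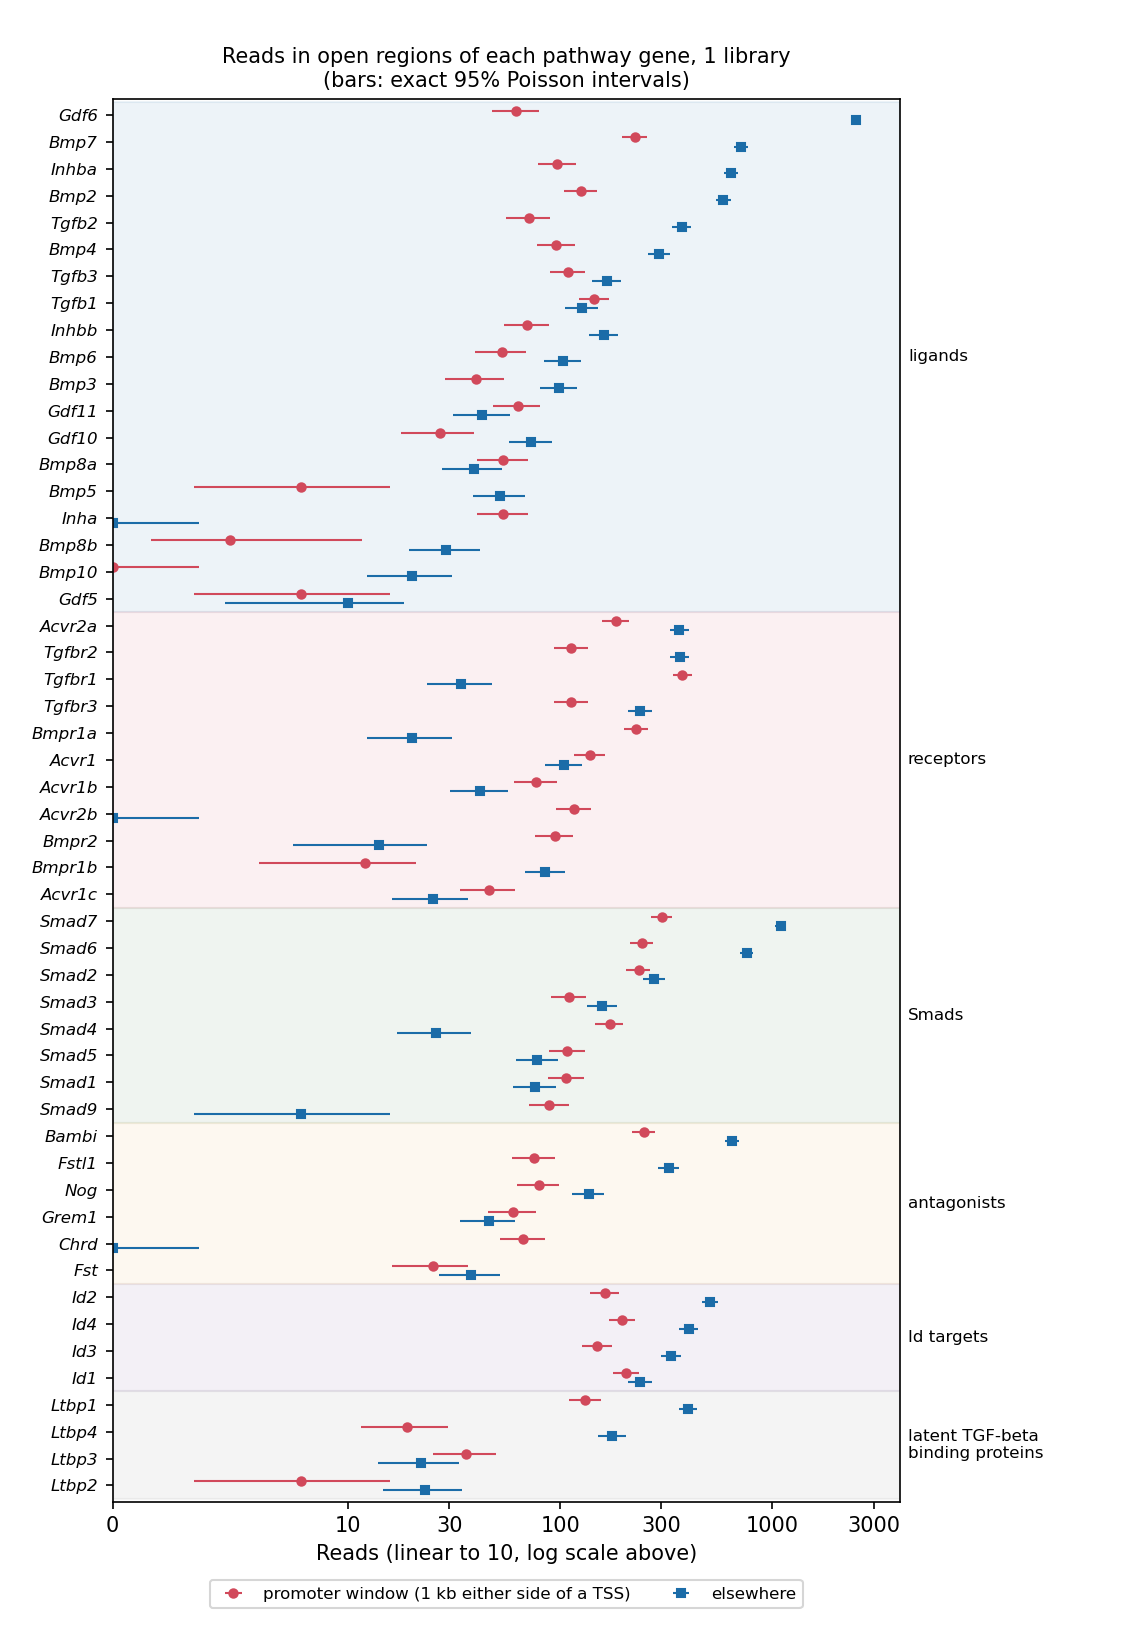
Reads in the promoter window (red circles) and elsewhere (blue squares) for each of the 52 genes (y axis, grouped by role, sorted by total reads), with exact 95% Poisson intervals; the x axis is linear to 10 reads and logarithmic above. Gdf6 has 2483 reads elsewhere, 1935 of them in 1 region, Tgfbr1 and Bmpr1a have most reads at the promoter, and Bmp10 has none there.

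The strongest region lay in the promoter window at 37 of the 52 genes, against 66.9% of genes with a region. It lay within the gene at Bmp4, Bmp5, Ltbp1 and Ltbp4. It lay outside the gene at Bmp3, Bmp6, Bmp8b, Bmp10, Gdf5, Gdf6, Inhba, Bmpr1b, Smad6, Id1 and Ltbp2. In the any-gene assignment, the strongest regions of Bmp4, Bmp6, Bmp8b, Gdf6, Inhba, Bmpr1b, Smad6 and Ltbp2 went to other genes. By role and nearest protein-coding TSS, the strongest region was in the promoter window at 10 of 11 receptors, 7 of 8 Smads, 6 of 6 antagonists, 3 of 4 Id genes, 10 of 19 ligands and 1 of 4 latent TGF-beta binding proteins.

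A further 39 pathway genes, also taken by name, had a lower median than the 52. A region was found at 35 of them, against 78.9% of protein-coding genes, and in the promoter window at 28, against 64.6%. The median over all 39 was 87 reads, against 61 over all protein-coding genes. In the top 25% of genes with a region were 12 of the 35 with a region, against 25.1% of such genes. These shares and the median were somewhat above those of all genes, and the differences were not tested. The most reads were found at Tgif1, a corepressor of Smads, with 937, at Bmper, a secreted BMP modulator, with 812, and at Skil, a further Smad corepressor, with 688, of which 518 were in the promoter window. Among those with a region, Nrros had the fewest, 5. The 4 without a region were Gdf3, Gdf9, Nodal and Lefty2, ligands known from the germ line and the early embryo.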

How the data were processed

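Per the labels' protocols, the authors used BWA-MEM for alignment (UCSC mm10) and MACS2 for peak calling; Partek and STAR 2.6.1d are named in the submitters' processing notes without roles. Duplicate and mitochondrial read removal and the libraries behind the region set are not given in the sources used here. The authors deposited CPM values per region, with 1 read added, for 121574 regions; 99.9% were whole multiples of 0.0484 (tolerance 0.01 read), and reads were recovered as the multiple minus 1 (2297894 in all). The other deposited table, whose row name fits no single sample, was not used. The median region had 7 reads. A further 1 value column named no sample given here and was not used. Lanes 1 to 4 share 1 column, so no test was made.

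Regions were assigned with the GENCODE vM21 basic annotation (protein-coding transcripts) and sequences read from GRCm38.p6, with Python 3.11.15, pysam 0.24.0 and scipy 1.17.1. Assignment, intervals and motif search were tested on simulated data. The genes, roles, lists and motifs were chosen with earlier results of these data known. In each role the 3 genes with the most reads and the 1 with the fewest are described in full, beside the Id genes, inhibitory Smads and Gdf6. Local alignment to the mitochondrial genome was added after the data were seen.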

Additional observations from a re-analysis of the deposited data

How the results depend on the processing

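The sums depend on how regions are given to genes. With the nearest TSS of any gene, noncoding genes included, the median was 133.5 reads for all 52 genes, 106 for ligands, 116 for receptors, 105.5 for antagonists and 382 for Id genes. Without regions over 100 kb from a TSS it was 208 for receptors and 441.5 for Id genes. Without regions under 10 reads it was 185.5 for all 52 genes, 194.5 for Smads, 133.5 for antagonists and 490 for Id genes. The share of reads outside the promoter window was 69.9% (exact binomial interval 69.2% to 70.6%, which holds counting error alone). It was 40.8% with the nearest TSS of any gene, 56.6% without regions over 100 kb away and 68.1% with a window of 2 kb. Without regions under 10 reads it was 67.2%, and without the region over 1000 reads 66.4%. All of these lay outside that interval. Under these 5 alternatives 47 to 51 of the 52 genes had a promoter region and 24 to 31 were in the top 25%. The Id genes had the highest median of the 6 roles in each. Leaving out a lane was not run, because the lanes share 1 column. No paired analysis was possible because there is 1 group. Most regions hold few reads, so order among them was not detectable at this depth.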

Other observations

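The composite element found near Id1, Id2 and Id3 was also in an intergenic region 3.1 kb upstream of Msx2, a homeobox factor of the tooth and a known BMP target, with 102 reads (83.2 to 123.8), more than 99.4% of regions away from promoters. It was in the promoter region of Skil, with 440 reads (399.8 to 483.1). Both were singled out after all 80 regions with the element had been seen.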
